A study of Mus musculus with 20 samples.

Results

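The cytosolic ribosomal protein genes were followed in mouse splenic CD4+CD25- T cells, resting or activated, in which Pcbp2, a protein that binds RNA, was deleted or kept. A gene was a member if it was protein-coding in GRCm38 and its symbol began with Rpl or Rps followed by a digit, a, p or x; Rps6k kinases and symbols containing -ps were left out. The rule found 86 members among 49315 genes, 52 named Rpl and 34 named Rps. Of these, 77 encode core proteins of the ribosome, 46 of the large and 31 of the small subunit. The other 9 are the paralogs Rpl3l, Rpl7l1, Rpl10l, Rpl22l1, Rpl36al, Rpl39l and Rps27l, the intronless copy Rps27rt, and Rps19bp1, which encodes a binding partner of Rps19 and not a ribosomal protein. Fau encodes a ribosomal protein fused to a ubiquitin-like protein, and its symbol falls outside the rule.

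The tested cells carried Fl-Pcbp2 and CD4cre (CKO), so that Cre under the Cd4 promoter removes Pcbp2 in T cells from the thymus onward. The controls (CTL) were littermates labelled Fl-Pcbp2, without CD4cre. Both genotypes were taken after 6 h with CD3/CD28 mouse T-activator beads (3 CKO and 5 CTL libraries) and at baseline, 0 h (6 CKO and 6 CTL libraries). The labels give the sex of each animal and no age, and call the cells splenic T effector cells. Each title carries a number such as 4.24, used here to name a library within its group. Nothing in the labels says that libraries came from separate animals, so p-values measure the spread between these libraries.

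Ribosomal proteins are made in nearly equal amounts, because each ribosome holds a single copy of most of them, and their mRNAs are among the most abundant of a cell. In mammals many of these mRNAs begin with a C followed by a run of pyrimidines, the 5′ terminal oligopyrimidine (TOP) tract. TOP mRNAs are controlled chiefly in translation, through the kinase mTOR and the protein LARP1, so ribosome production can change with little change of mRNA level. T cells increase ribosome production after their antigen receptor is triggered. Pcbp2 belongs to a family of proteins that bind C-rich RNA.

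The start sites were compared first, since the TOP tract is the sequence most members are known for. A RefSeq promoter (GRCm38.p6) was found for 66 of the 86 members and for 17426 other protein-coding genes. A TOP-like start was counted where a C lay between positions -1 and +3 around the annotated start and was followed by at least 5 bases that were C or T, on the transcript strand. Of the 66 members 21 had one (31.8%), against 5.92% of the other genes. With at least 4 such bases 22 members had one (33.3%), against 9.29% of the other genes. The annotated starts were not checked here. The windows below show 10 bases before the start and 20 from it on, with the tract in capitals. The first 5 are members with a tract, among them Rpl13a, which fell on activation, the kinase target Rps6 and the stalk gene Rplp2.
Rpl13a, chr7:45128726-45128755, minus strand: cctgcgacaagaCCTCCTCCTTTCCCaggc
Rpl27a, chr7:109519185-109519214, plus strand: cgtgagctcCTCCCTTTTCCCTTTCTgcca
Rpl15, chr14:18270967-18270996, minus strand: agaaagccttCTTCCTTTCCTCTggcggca
Rps6, chr4:86857348-86857377, minus strand: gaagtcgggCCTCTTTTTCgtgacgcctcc
Rplp2, chr7:141447641-141447670, plus strand: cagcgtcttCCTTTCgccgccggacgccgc

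The next 4 are members outside the core set, 3 called higher with activation in CTL and Rpl22l1, whose call depended on the fit. None of them had a TOP-like start by this rule, which rests on its cut-offs. In Rps27l a C within the searched positions was followed by 4 pyrimidines. In Rpl22l1 a C with a pyrimidine run lay just past the searched positions.
Rps27l, chr9:66946076-66946105, plus strand: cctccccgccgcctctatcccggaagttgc
Rps19bp1, chr15:80264287-80264316, minus strand: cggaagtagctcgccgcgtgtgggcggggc
Rpl7l1, chr17:46782637-46782666, minus strand: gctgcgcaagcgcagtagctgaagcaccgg
Rpl22l1, chr3:28805498-28805527, plus strand: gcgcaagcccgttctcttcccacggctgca

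The tract of Rpl13a ran over 14 bases and that of Rpl27a over 17. The rest of the promoter window, 250 bases before to 50 after the start, was searched on both strands for short motifs. CCGGAA, the core bound by ETS family factors, was present in 54.5% of the members and in 20.8% of the other genes. GGGCGG, the core of the Sp1 site, was present in 62.1% and 49.2%, and AAGATGG, the core of the Yy1 site, in 15.2% and 7.15%. CACGTG, the E-box bound by Myc, was present in 9.09% and 8.91%, and TATAAA in 10.6% and 14.8%. These are counts of letters and not of bound sites.

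Members held 6.56, 6.72 and 6.90% of all counts in the 3 CKO libraries at 6 h. In CTL at 6 h they held 6.56, 6.56, 6.89, 7.58 and 12.3%. At 0 h the lowest, median and highest shares were 5.88, 6.62 and 8.40% in CKO and 5.89, 6.72 and 8.13% in CTL. The groups overlapped, and 1 library, CTL 6 h 4.24, lay far above the rest. In bulk RNA a lower share of cells of a type and less RNA per cell cannot be told apart. Large-subunit and small-subunit genes held 3.72 and 2.91% of counts at the median in CKO at 0 h, and 3.77 and 2.95% in CTL at 0 h.

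**Figure D1:**
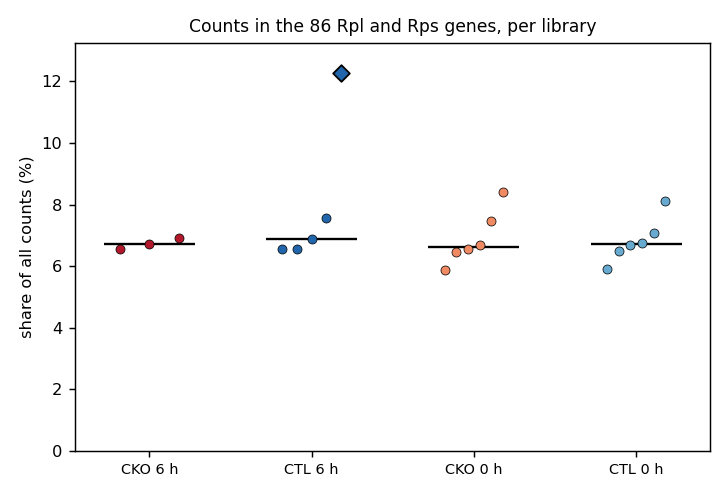
Share of all counts (%) held by the 86 Rpl and Rps genes in each of the 20 libraries, by group; points are libraries, bars are medians and the diamond is CTL 6 h 4.24. All groups have medians between 6.62 and 6.89%, and the diamond lies at 12.3%.

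CTL 6 h 4.24 was also the shallowest library, at 26.4 M counts against 62.4 to 85.6 M in the other 19. Pcbp2 measured 7.27 to 11.3 CPM (counts scaled to the TMM-normalised library size) in CKO at 6 h and 262 to 348 CPM in CTL at 6 h. At 0 h it measured 13.1 to 22.1 CPM in CKO and 261 to 396 CPM in CTL, so every library matched its genotype label. CKO 0 h 4.24 and 5.6 are labelled male but had 1160 and 1353 CPM of Xist, which females express, and Ddx3y, on the Y chromosome, was near 0 in both (0.28 and 0.12 CPM). The 12 T cell markers summed to 3925 to 4553 CPM in CKO and 3428 to 4360 CPM in CTL at 6 h. At 0 h they summed to 6913 to 8375 CPM in CKO and 6154 to 7887 CPM in CTL. The 8 B cell markers summed to 110 to 261 CPM in CKO and 85.2 to 128 CPM in CTL at 6 h, and to 404 to 898 CPM in CKO and 507 to 871 CPM in CTL at 0 h. The 9 myeloid markers summed to 7.60 to 44.2 CPM in CKO and 4.43 to 21.9 CPM in CTL at 6 h, and to 55.1 to 146 CPM in CKO and 38.5 to 144 CPM in CTL at 0 h. The T cell, B cell and myeloid sums were lower at 6 h in both genotypes, and their part in the activation results was not tested. The 4 regulatory T cell markers summed to 475 to 691 CPM in CKO and 320 to 483 CPM in CTL at 6 h. At 0 h they summed to 204 to 661 CPM in CKO and 150 to 295 CPM in CTL. All 4 had positive fold changes of CKO over CTL at both times, and 0 were called.

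Members moved together from library to library. At 0 h the median of the 77 core genes relative to the CTL 0 h mean ranged from -0.22 to 0.44 on the log2 scale over the CKO libraries and from -0.30 to 0.34 over the CTL libraries. Within a library at 0 h the middle 50% of the core genes lay within 0.04 to 0.11 of each other on that scale. Both 0 h libraries numbered 5.13 were the highest of their group, at 0.44 in CKO and 0.34 in CTL. At 0 h the range of these medians within a genotype was thus wider than the middle range of the genes in any library.

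Per kilobase of transcript, the core genes spanned a wide range in CTL at 0 h, with a median of 977 CPM per kb. The highest was Rplp1, an acidic protein of the stalk that recruits elongation factors, at 3443 ± 495 CPM per kb (SD, n = 6). Rps27, a zinc-finger protein of the small subunit, followed at 3424 ± 483 CPM per kb and did not differ from it beyond the spread. Then came Rps15, near the decoding site, at 2110 ± 316, Rps18 at 1978 ± 304 and Rpl13 at 1914 ± 309 CPM per kb, which overlapped each other. Among the tested members Rpl3l, expressed in striated muscle, was lowest at 0.12 ± 0.10 CPM per kb, and Rpl39l, known from testis, stood at 0.51 ± 0.28. Above them came Rps19bp1 at 14.1 ± 1.9, Rps27rt at 15.8 ± 2.5 and Rpl7l1 at 26.0 ± 3.2 CPM per kb.

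The order depends on the length used: with all annotated exons merged, Rps18 moved from rank 4 to rank 37 and Rpl13 from rank 5 to rank 24, while Rplp1 stayed first. It is also uncertain because many processed pseudogenes copy these mRNAs. At the median 31.2% of the 100-base windows of a member also occurred in the transcript of another annotated gene. For Rps27 this was 98.4%, and 9 members, Rps27l and Rps19bp1 among them, had no such window. Rps27rt matched Rps27 over 341 aligned bases with 100% identity, so its counts cannot be assigned with confidence. Across the 77 core genes the order of levels per kb correlated with that of CTL at 0 h at Spearman rho 0.99 in CKO at 6 h, 0.99 in CKO at 0 h and 0.98 in CTL at 6 h, a description over genes that share libraries.

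At 0 h no ribosomal protein gene was called in CKO against CTL. None of the 85 tested members passed the test (edgeR quasi-likelihood, Benjamini-Hochberg adjusted p under 0.05 over 28082 genes), where 0.705% of all genes did (0.381% higher and 0.324% lower). DESeq2 called 0 as well, and 1 member had an unadjusted p under 0.05. The median log2 fold change of CKO over CTL was 0.03 over the members and -0.08 over all genes tested, and 60 members were positive. Its sign depended on single libraries: without CKO 0 h 5.13 it was -0.07, with 76 members negative, and without CTL 0 h 5.13 it was 0.10, with 3 negative. Without both of these same-numbered libraries it was 0.00, with 39 negative. With the number as a replicate block it was 0.03, with 25 negative. The 77 core genes lay between -0.07, for Rps24, and 0.31, for Rps3a1. Their median standard error was 0.14, so the test has limited reach for small differences. The smallest p belonged to Rps3a1, at 0.31 ± 0.12 (edgeR adjusted p = 0.435), followed by Rpl36 at 0.15 ± 0.15 (adjusted p = 0.814) and Rpl7l1 at 0.15 ± 0.15 (adjusted p = 0.821). The member not tested, Rpl10l, known from testis, fell under the filter on low counts.

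At 6 h again 0 of 85 members were called in CKO against CTL, where 0.253% of all genes were (0.21% higher and 0.0427% lower); DESeq2 called 0, and 1 member had an unadjusted p under 0.05. The median log2 fold change was -0.12 over the members and -0.34 over all genes, with 75 members negative. Without CTL 6 h 4.24 the median over the members was 0.00, with 38 negative. With only the groups compared in the fit it was -0.02, with 53 negative, and without any of CKO 0 h 4.29, 5.6 or 9.20 or CTL 0 h 5.6 it was -0.05, with 60 negative. It was -0.30 with library totals and -0.27 with a mean of at least 1 CPM as the filter. The smallest p belonged to Rps27l, at a log2 fold change of -0.60 ± 0.21 (SE; edgeR adjusted p = 0.317), followed by Rps27rt at -0.81 ± 0.40 and Rps3a1 at 0.31 ± 0.15, each at an adjusted p of 0.317. Only the number 5.13 occurs in both genotypes at 6 h, so genotype and number cannot be told apart in the other libraries. In CKO and CTL 6 h 5.13, Rps27l measured 24.2 and 25.5 CPM, Rps27rt 5.16 and 5.71, and Rps3a1 1366 and 1044.

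**Figure D2:**
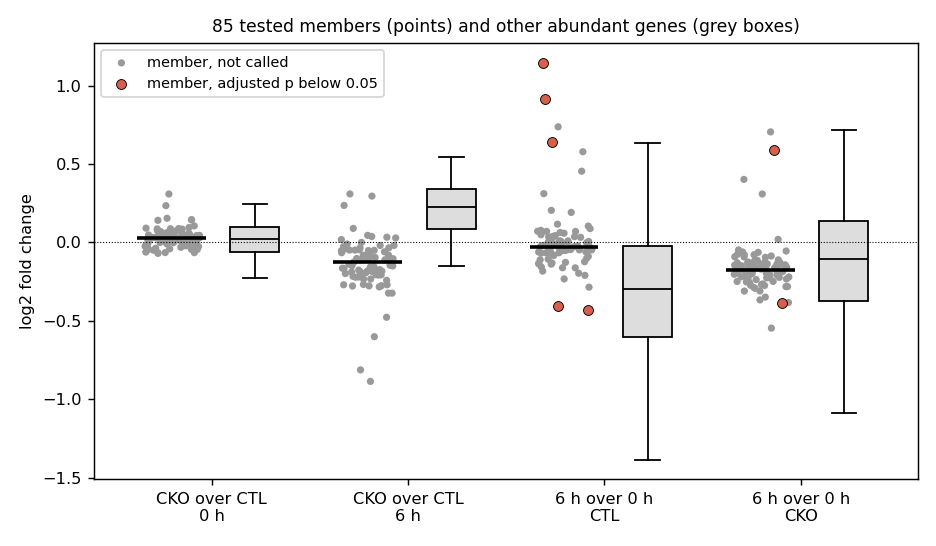
Log2 fold changes of the 85 tested members in 4 comparisons; points are genes, coloured points have an edgeR adjusted p under 0.05, black lines are medians. Grey boxes give the 2364 other genes with a mean of at least 100 CPM (median, quartiles, whiskers to the 5th and 95th percentiles). With activation in CTL 5 members were called, and most members lay within a narrower range than the other abundant genes.

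Few ribosomal protein mRNAs were called with 6 h of activation in CTL cells, and the number called depended on the libraries and the fit. Of 85 members 3 were called higher and 2 lower, where 60.7% of all genes (40.2% higher and 20.5% lower) and 54.7% of the 2442 genes with a mean of at least 100 CPM were called. All 3 that were higher lie outside the core set (Rps27l, Rps19bp1 and Rpl7l1), and both that were lower are core large-subunit genes (Rpl3 and Rpl13a). The other 75 core genes were not called. The median log2 fold change was -0.03 over the members, 0.32 over all genes and -0.28 over the abundant ones. Its sign depends on the scaling. It was 0.06 with RLE factors (all genes 0.40), -0.11 with TMM factors computed without the members (0.23) and 0.26 with library totals (0.59). With these 4 scalings the median of the members lay below that of all genes, while with a mean of at least 1 CPM as the filter it lay above, at 0.21 against 0.04. With library totals 10 members were called, all of them higher, where 61.7% of all genes were (48.7% higher and 13.1% lower), and 78.9% of the called genes were higher, against 66.3% with TMM factors. With the filter at 1 CPM 5 members were called, also all higher, where 51.9% of all genes were (27.8% higher and 24.1% lower).

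Rps27l, a paralog of Rps27 known as a target of p53, showed the largest rise. At 6 h it measured 25.5, 34.5, 44.1, 49.4 and 61.3 CPM in the 5 CTL libraries, the last being 4.24. At 0 h the lowest, median and highest CTL values were 16.8, 19.1 and 23.2 CPM. All 6 h libraries lay above all 0 h libraries, and the log2 fold change was 1.15 ± 0.17 (SE; edgeR adjusted p = 2.5e-05). Without 4.24 it was 1.00 ± 0.15 (adjusted p = 3.01e-05). The level was higher at 6 h in 5 of 5 same-numbered pairs.

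Rps19bp1, whose product binds Rps19 and is also known as a regulator of Sirt1, measured 16.7, 21.6, 23.4, 23.5 and 26.3 CPM in CTL at 6 h. At 0 h the CTL values were 10.1, 11.5 and 14.01 CPM at the lowest, median and highest. The groups did not overlap, and the log2 fold change was 0.92 ± 0.13 (edgeR adjusted p = 2.63e-05), with 5 of 5 pairs higher at 6 h.

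Rpl7l1, a paralog of Rpl7 known from assembly of the large subunit in human cells, measured 73.7, 81.8, 106, 125 and 142 CPM in CTL at 6 h. The CTL values at 0 h were 59.9, 65.6 and 83.7 CPM. The lowest 6 h value, that of 4.24, and the next lay within the 0 h range. The log2 fold change was 0.64 ± 0.16 (edgeR adjusted p = 0.00189), and 4 of 5 pairs were higher. The calls on Rps27l, Rps19bp1 and Rpl7l1 held in 33 of 33 alternative settings each.

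Rpl3, a protein next to the peptidyl transferase centre, fell in CTL. It measured 1045, 1077, 1085, 1167 and 1210 CPM at 6 h, against 1147, 1484 and 1913 CPM at 0 h (lowest, median and highest). Only the lowest 0 h library reached into the 6 h range. The log2 fold change was -0.43 ± 0.12 (edgeR adjusted p = 0.00518), and 5 of 5 pairs were lower at 6 h. By the windows above, 79.4% of its transcript recurs in other annotated genes.

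Rpl13a, known in human myeloid cells for leaving the ribosome to silence inflammatory mRNAs, measured 493, 598, 604, 624 and 662 CPM in CTL at 6 h. Those at 0 h were 674, 767 and 1004 CPM. The groups did not overlap, and the log2 fold change was -0.41 ± 0.12 (edgeR adjusted p = 0.00725), with 5 of 5 pairs lower. The calls on Rpl3 and Rpl13a held in 31 of 33 alternatives each and were lost with library totals and with a mean of at least 1 CPM as the filter.

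**Figure D3:**
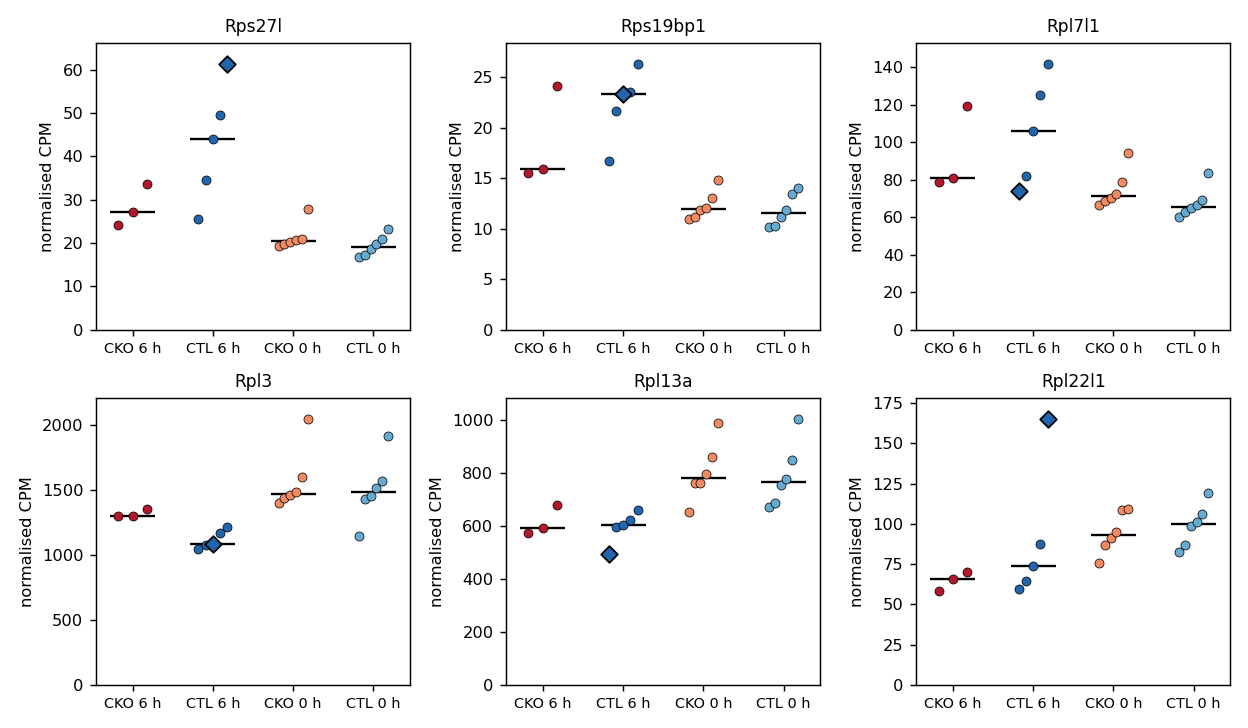
Normalised CPM of the 5 members called in CTL and of Rpl22l1 in each library; bars are medians and the diamond is CTL 6 h 4.24. Rps27l and Rps19bp1 in CTL lie higher at 6 h than in every 0 h library, Rpl13a lies lower, and the diamond of Rpl22l1, at 165 CPM, stands apart from the other CTL libraries at 6 h.

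Without CTL 6 h 4.24, the number called in CTL was 13 of 85, 3 higher and 10 lower, where 55% of all genes were called (32.4% higher and 22.7% lower). Rps27l, Rps19bp1 and Rpl7l1 were again the 3 higher. Among the lower ones were Rpl22l1, Rpl3, Rps21, Rpl39, Rpl13a, Rps16, Rpl37, Rpl30 and Rpl36a, with log2 fold changes between -0.46 and -0.29. The median over the members was then -0.14, with 77 members negative. It was 0.14 over all genes and -0.16 over the 2442 genes with a mean of at least 100 CPM. Leaving out CTL 0 h 5.6 gave 14 called members, 3 higher and 11 lower, where 57.4% of all genes were called. Leaving out CKO 0 h 9.20 gave 9, 3 higher and 6 lower, where 59.4% were.

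Rpl22l1, the paralog that can take the place of Rpl22, which mouse alpha-beta T cells need for their development, was called or not called depending on the fit. It measured 58.0, 65.9 and 69.9 CPM in CKO at 6 h, against 75.8, 93.0 and 109 CPM at 0 h (lowest, median and highest), with no overlap. In CTL it measured 59.3, 64.8, 73.6, 87.3 and, in 4.24, 165 CPM at 6 h, against 82.2, 99.8 and 119 CPM at 0 h. With all libraries it was called in neither genotype, at -0.55 ± 0.24 in CKO (edgeR adjusted p = 0.0755) and -0.14 ± 0.20 in CTL (adjusted p = 0.559). Without 4.24 it was called lower in both, at a log2 fold change of -0.54 ± 0.14 in CKO (adjusted p = 0.00329) and of -0.46 ± 0.12 in CTL (adjusted p = 0.0041). With the number as a replicate block and all libraries it was called in CKO (adjusted p = 0.0451).

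In CKO cells activation gave 2 called members of 85, where 36% of all genes were called (22.3% higher and 13.7% lower). Rps19bp1 was higher and Rpl13a lower. Rps19bp1 measured 15.5, 15.9 and 24.1 CPM at 6 h, against 10.96, 12.0 and 14.8 CPM at 0 h. The groups did not overlap, and the log2 fold change was 0.59 ± 0.15 (edgeR adjusted p = 0.0074). Rpl13a measured 575, 593 and 678 CPM at 6 h, against 655, 781 and 988 CPM at 0 h, where 1 library reached into the 6 h range. Its log2 fold change was -0.39 ± 0.14 (edgeR adjusted p = 0.0411). With the number as a replicate block the adjusted p was 0.0520, which ends the call. The block leaves 2 called members, Rps19bp1 higher and Rpl22l1 lower, where it called 48% of all genes (32.9% higher and 15.2% lower). In CTL it called 5 members, where it called 63.8% of all genes (41.8% higher and 22% lower). The call on Rps19bp1 in CKO held in 32 of 33 alternatives and was lost without CKO 6 h 11.18. That on Rpl13a in CKO held in 17 of 33, and was lost when any of CKO 0 h 4.24, 5.13 or 11.18, CKO 6 h 5.13, 5.6 or 11.18, or CTL 6 h 10.28 was left out.

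Over all genes the median log2 fold change in CKO was 0.15. Over the 2442 genes with a mean of at least 100 CPM it was -0.11. Across the members it was -0.17, and 80 of 85 were negative. The median was -0.04 with library totals (61 negative), and -0.05 with a mean of at least 1 CPM as the filter (62 negative), where that over all genes was -0.01. It was -0.07 without CKO 0 h 5.13 (70 negative) and -0.29 without CKO 0 h 9.20 (81 negative). Rps27l measured 24.2, 27.2 and 33.6 CPM at 6 h, against 19.3, 20.4 and 27.9 CPM at 0 h, and was not called (0.40 ± 0.19, edgeR adjusted p = 0.109). Without CTL 6 h 4.24, which shares in the estimate of the spread, 6 members were called, 2 higher (Rps27l and Rps19bp1) and 4 lower (Rpl22l1, Rpl13a and Rpl30 among them), where 50.2% of all genes were called (30.6% higher and 19.7% lower).

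The response to activation was not shown to differ between genotypes. No member, and no gene of the 28082, was called in the interaction by edgeR, where 0% of all genes were; DESeq2 called 0 too, and 1 member had an unadjusted p under 0.05. That member was Rps27l, with a log2 difference of the CKO minus the CTL response of -0.75 ± 0.26 (edgeR adjusted p = 0.868). Next by p came Rps19bp1 at -0.33 ± 0.21 and Rps27rt at -0.77 ± 0.50, each at an adjusted p of 0.868. These differences carry the same limit, since the genotypes share only the number 5.13 at 6 h.

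By role, no gene of the lists that follow was called with all libraries. For the stalk, Rplp0, Rplp1 and Rplp2 had log2 fold changes with activation of 0.02, -0.18 and -0.19 in CKO and of 0.04, -0.03 and -0.05 in CTL. Rplp0, which anchors the stalk, measured 2359, 2373 and 2382 CPM in CKO at 6 h and 2032, 2177 and 3208 CPM in CKO at 0 h (lowest, median and highest). Rpl5 and Rpl11, which carry the 5S RNA and bind Mdm2 when ribosome assembly fails, had changes of -0.12 and -0.27 in CKO and of -0.16 and -0.03 in CTL. Rps6, the substrate of the S6 kinases, had -0.08 in CKO and -0.07 in CTL. Rps27a, made as a fusion to ubiquitin, had -0.25 in CKO and -0.03 in CTL. With all libraries none of these passed the test in any comparison, nor did any of the 19 genes mutated in Diamond-Blackfan anaemia, a human anaemia caused by ribosomal protein loss.

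The X-linked members Rpl10, Rpl36a, Rpl39 and Rps4x gave log2 fold changes of CKO over CTL at 0 h between -0.03 and 0.03, and none was called in any comparison with all libraries. Without CTL 6 h 4.24, Rpl36a and Rpl39 were called lower with activation in CTL, as given above. The 9 genes of the exit tunnel and its rim had a median log2 fold change with activation of -0.16 in CKO and of -0.03 in CTL. The 7 tested genes of the mRNA channel and decoding site had -0.14 in CKO and 0.01 in CTL, with 0 called in either list. Fau and Rack1, ribosomal genes outside the symbol rule, were called in none of the 5 comparisons.

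Paralogs differed in their share of each pair, counted per kilobase. Rpl22l1 made up 44.0% of the Rpl22 pair at the median in CKO at 6 h and 46.2% in CTL at 6 h, against 47.8% in CKO and 48.5% in CTL at 0 h. Such shares depend on the length used. In CTL at 0 h Rpl22l1 and Rpl22 stood at 179 and 183 CPM per kb of the transcript used here. With merged exons they stood at 49.8 and 129 CPM per kb, so equal levels of the 2 genes are not shown. Rps27l made up 1.63% of the Rps27 pair in CKO and 2.04% in CTL at 6 h, against 1.25% in CKO and 1.11% in CTL at 0 h. With merged exons Rps27 stood at 1133 CPM per kb in CTL at 0 h (3424 otherwise) and Rps27l at 23.8 (38.8 otherwise). Since 98.4% of the windows of Rps27 recur in other genes and none of Rps27l do, the size of this share is uncertain. Rpl36al made up 14.5% of its pair with Rpl36a in CKO and 15.4% in CTL at 6 h, against 14.5% and 14.1% at 0 h. Rpl7, partner of Rpl7l1, had a log2 fold change of 0.01 in CTL, and Rps27, partner of Rps27l, one of 0.07, so in these pairs only the paralog was called, and this count did not test the difference between partners.

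The library CTL 6 h 4.24 departed from the other 4 CTL libraries at 6 h by transcript length. Of the 77 core genes 71 were higher in it, at a median ratio of 1.497. The 10 genes with transcripts of up to 500 bases had a median ratio of 1.86, the 39 of 501 to 1000 bases one of 1.48, and the 28 over 1000 bases one of 1.35. Over the 77 genes Spearman's rho between ratio and length was -0.42, a description of this library. Rpl41, which encodes the shortest ribosomal protein, measured 1081 CPM in it and 454 to 510 CPM in the other 4. Rps29, a small zinc-binding protein, measured 1235 CPM in it and 468 to 574 CPM in the others. Within the 3 length classes, from short to long, rho was -0.61, -0.28 and 0.08. Rps20 and Rps15a, with transcripts of 3706 and 5179 bases, had ratios of 1.96 and 1.57, while Rpl3 and Rplp0, with 1351 and 1358 bases, had 0.96 and 1.05. These examples were chosen after their values were seen. Its depth was the lowest, and what sets it apart was not tested.

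**Figure D4:**
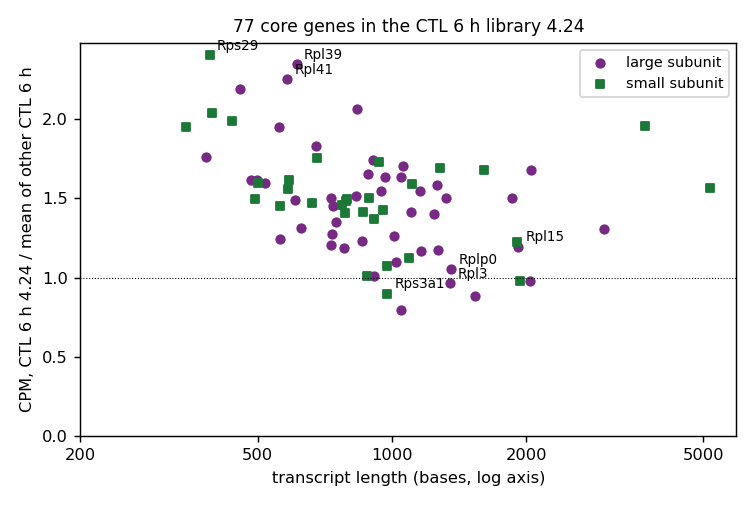
CPM in CTL 6 h 4.24 divided by the mean of the other 4 CTL 6 h libraries, for each of the 77 core genes, against transcript length on a log axis; circles are large-subunit and squares small-subunit genes, and the dotted line marks equal levels. Most of the points above a ratio of 2 belong to short transcripts, such as Rpl41, Rpl39 and Rps29, and 71 of 77 lie above 1.

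Rps3a1, the small-subunit protein eS1, was the core gene with the largest positive genotype difference at both times. It measured 1333, 1366 and 1399 CPM in CKO at 6 h, against 1003, 1012, 1044, 1081 and 1372 CPM in CTL at 6 h. At 0 h it measured 1324, 1481 and 2078 CPM in CKO and 1021, 1265 and 1559 CPM in CTL (lowest, median and highest). The groups overlapped at both times, and neither difference was called (0.31 ± 0.15, edgeR adjusted p = 0.317 at 6 h; 0.31 ± 0.12, adjusted p = 0.435 at 0 h). As a share of all member counts, which removes the common movement of the set, Rps3a1 held 2.04 to 2.11% in CKO and 1.12 to 1.98% in CTL at 6 h. At 0 h it held 2.03 to 2.27% in CKO and 1.68 to 1.94% in CTL. On this scale the ranges of the genotypes lay apart at both times, but Rps3a1 was singled out for its difference in these same libraries. How many other members lie apart on it was not counted, so this adds no evidence of a genotype effect.

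Rps3a3 (chr13:108670603-108671397, plus strand), a processed pseudogene of Rps3a1, differs from the Rps3a1 transcript at 9 of 795 aligned bases. It measured 1.31 to 1.52 CPM in CKO at 6 h and 98.9 to 353 CPM in CTL at 6 h. At 0 h it measured 1.57 to 2.16 CPM in 5 of the 6 CKO libraries and 80.0 CPM in the remaining one, 4.29, against 88.9 to 248 CPM in CTL. Its log2 fold change of CKO over CTL was -7.06 ± 1.47 at 6 h (edgeR adjusted p = 0.0459) and -3.68 ± 0.89 at 0 h (adjusted p = 0.0615). In both genotypes the libraries numbered 4.29 lay near 80 to 100 CPM.

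Rps3a2 (chr14:88123017-88123808, minus strand), a second processed pseudogene with 4 differences over 792 bases, was lower in CKO at both times, with a log2 fold change of -0.81 ± 0.17 at 6 h (edgeR adjusted p = 0.0480) and -0.62 ± 0.13 at 0 h (adjusted p = 0.0300). Summed, Rps3a1, Rps3a2 and Rps3a3 held 2.08 to 2.15% of member counts in CKO and 1.56 to 2.18% in CTL at 6 h. At 0 h they held 2.16 to 2.31% in CKO and 2.00 to 2.19% in CTL, so the ranges of the sums overlapped between genotypes. Between libraries of the same number, the sum was higher in CKO in 5 of 5 pairs at 0 h and in the 1 pair at 6 h, and the CPM of Rps3a1 was higher in 5 of 5 pairs at 0 h. Both pseudogenes were chosen after their values were seen. The sources used here do not say how reads that fit several genes were assigned, and the part of such reads in the Rps3a1 difference was not tested.

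**Figure D5:**
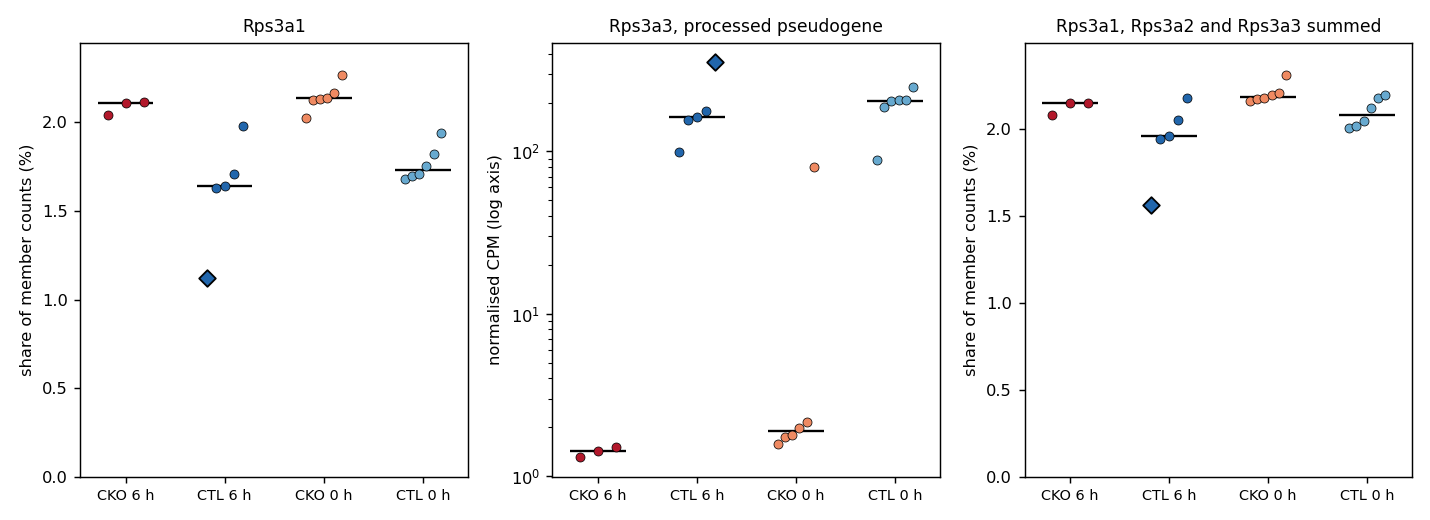
Rps3a1 as a share of all member counts (left, %), its processed pseudogene Rps3a3 in normalised CPM on a log axis (middle), and Rps3a1, Rps3a2 and Rps3a3 summed as a share of member counts (right, %), per library; bars are medians and the diamond is CTL 6 h 4.24. In CKO libraries Rps3a1 lies higher and Rps3a3 mostly near 1 to 2 CPM, and the ranges of the summed share overlap between genotypes.

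Genes that act around the ribosomal proteins were also counted. None of the lists that follow had a called gene in CKO against CTL at either time or in the interaction. Over all genes the shares called with activation were 22.3% (higher) and 13.7% (lower) in CKO, and 40.2% (higher) and 20.5% (lower) in CTL, and no list was tested against these shares. Of 17 tested chaperones and assembly factors of ribosomal proteins, 2 rose and 0 fell with activation in CKO, and 6 rose and 0 fell in CTL. Eif6, which keeps new large subunits from joining too early, had 0.63 ± 0.11 in CTL (edgeR adjusted p = 0.000131), Nmd3, their export adaptor, 0.53 ± 0.11 and Zfp593, another assembly factor, 0.69 ± 0.18.

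Of 18 regulators of TOP mRNAs 3 rose and 2 fell in CKO, and 7 rose and 5 fell in CTL. Rps6kb2, an S6 kinase, had -0.93 ± 0.14 in CKO and -1.10 ± 0.12 in CTL, and Tial1 and Tia1, which bind TOP mRNAs under stress, had -0.68 ± 0.11 and -0.63 ± 0.12 in CTL. Of 18 other TOP mRNAs 1 rose and 1 fell in CKO, and 3 rose and 2 fell in CTL. Vim, an intermediate filament protein, had -1.90 ± 0.22 in CKO and -2.29 ± 0.19 in CTL, and Npm1, a nucleolar chaperone, 0.50 ± 0.18 in CKO and 0.72 ± 0.16 in CTL.

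Among 9 factors tied to ribosomal protein promoters, 2 rose and 1 fell in CKO, and 2 rose and 3 fell in CTL. Myc had 2.40 ± 0.28 in CKO and 2.23 ± 0.25 in CTL, Gabpb1, a partner of the ETS factor Gabpa, 0.62 ± 0.09 in CKO and 0.62 ± 0.08 in CTL, and the ETS factor Elf4 -1.02 ± 0.23 in CKO and -1.48 ± 0.19 in CTL. The 78 mitochondrial ribosomal protein genes, which serve the ribosome of that organelle, gave 0 higher and 19 lower with activation in CKO (median -0.12) and 21 higher and 17 lower in CTL (median 0.06). The 85 tested cytosolic members had 5 called in CTL, next to a background of 60.7%, and this difference between the lists was not tested.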

How the data were processed

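RNA of 20 libraries was sequenced with a stranded mRNA kit, per the labels' protocols. The authors deposited whole-number counts per Ensembl gene, not normalised. Per the submitters' processing notes, the tools were STAR 2.5.2b, Trimmomatic 0.36 and featureCounts of Subread 1.5.2, with GRCm38. No source used here gives the strand setting or how reads that fit several genes were handled. GENCODE M21 gave symbols, positions and lengths for 49056 of 49315 identifiers. Totals were 26.4 to 85.6 M counts, and precision rests on the spread between libraries.

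The test was the edgeR 4.0.16 quasi-likelihood fit (R 4.3.3) over all libraries, with the 4 groups as the only terms, TMM factors, filterByExpr (minimum count 10, minimum total 15) and Benjamini-Hochberg adjustment over 28082 genes; the code was tested on simulated data. Sex was no term, because labels and data conflict in 2 libraries. CPM used TMM-scaled totals, divided by the principal transcript's length where genes were compared. Alternatives were other scalings and filters, DESeq2 1.42.0, sex and Ddx3y terms, a replicate block, groups fitted alone, and libraries left out. Members named in full were the called ones with the largest changes, the highest and lowest per kb, those of lists by role and, where none was called, the 3 with the smallest p; from other lists, called genes with the smallest adjusted p. Members and lists were chosen with earlier results of these data known. Some genes of these lists are not reported here by name.

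Residuals of same-numbered libraries correlated at 0.24 to 0.70 between CKO and CTL at 0 h (5 pairs, median 0.51). Between 6 h and 0 h in CTL they correlated at 0.25 to 0.53 (5 pairs, median 0.41). Differently numbered libraries gave -0.56 to 0.62 and -0.38 to 0.37 in these comparisons, with negative medians. The pooled ranges overlap. Yet each CKO 0 h library with a same-numbered CTL 0 h library correlated most with that one among the CTL 0 h libraries. The same held for CTL 0 h libraries against CTL 6 h. In reverse, CTL 0 h 9.20 gave 0.62 with CKO 0 h 11.18 and 0.30 with CKO 0 h 9.20. CTL 6 h 5.13 gave 0.37 with both CTL 0 h 4.29 and 5.13. CKO and CTL 6 h 5.13 correlated at 0.59. The numbers may thus pair these groups, which the labels do not state. The main fit holds no term for the number, and the replicate block was an alternative. In CKO 3 pairs of 6 h and 0 h libraries gave 0.09 to 0.51, which does not pair them. No library was a copy of another: chi-square divided by degrees of freedom was 18.7 to 271 for the 43 pairs inside groups.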

Additional observations from a re-analysis of the deposited data

Results flagged for a closer look

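Of 36 sets of values tested for a library that stands apart (12 measures in 3 groups of 5 or 6 libraries), 12 were flagged, where chance flags about 1 in 20. The flags are not independent, since the members moved together within a library.

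CTL 6 h 4.24 stood apart for the share of counts held by the members, at 12.3% against 6.56 to 7.58% in the other CTL libraries at 6 h. It also did for the counts of ribosomal protein pseudogenes relative to those of the members, at 1.23% against 0.522 to 0.619%. Single genes flagged in it were Rpl22l1 at 165 CPM against 59.3 to 87.3, Rpl22 at 535 CPM against 298 to 346, and Rpl41 at 1081 CPM against 454 to 510.

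CKO 0 h 5.13 stood apart from the other CKO libraries at 0 h for Rpl3, at 2041 CPM against 1398 to 1599. There Rplp0 measured 3208 CPM against 2032 to 2391, Rpl41 787 CPM against 492 to 592, and Rps27l 27.9 CPM against 19.3 to 20.9. CTL 0 h 5.13 stood apart for Rpl41, at 679 CPM against 479 to 513.

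CTL 6 h 4.29 had 1372 CPM of Rps3a1 against 1003 to 1081 in the other CTL libraries at 6 h. CKO 0 h 4.29 had 0.459% of pseudogene counts relative to member counts, against 0.279 to 0.328% in the other CKO libraries at 0 h. Rps3a3, one of these pseudogenes, had 6521 counts in it, against 103 to 146 in the other CKO libraries at 0 h.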

How the results depend on the processing

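Members called in CKO against CTL at either time, and in the interaction, numbered 0 under every alternative run. Members called with activation in CTL (5) numbered 10 with library totals, 5 to 14 when a library was left out, and 18 with the number as a replicate block and CTL 6 h 4.24 left out (62.9% of all genes); the replicate block alone gave 5. Their median (-0.03) was 0.26 with library totals and 0.21 with a mean CPM of at least 1, and -0.18 to 0.05 when a library was left out.

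Members called with activation in CKO (2) numbered 1 with RLE factors, with no filter beyond 1 count, with DESeq2, without CKO 0 h 4.24 and 5.6, and without both 0 h libraries 5.13. They numbered 4 with TMM factors without the members, 9 with the replicate block without CTL 6 h 4.24 (55.8% of all genes), and 12 with only the groups compared (50.5%); the replicate block alone gave 2. When a library was left out they numbered 0 to 10, with 0 without CKO 6 h 11.18, 6 without CTL 6 h 4.24 or CTL 0 h 5.6, and 10 without CKO 0 h 9.20. The cause was not tested.

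Over all genes, the 198 called in CKO against CTL at 0 h became 562 with DESeq2, 621 with only the groups compared, 119 with the sex label, 302 without CKO 0 h 4.24 and 5.6, 86 without both 0 h libraries 5.13, 829 with the replicate block without CTL 6 h 4.24, and 79 to 584 when a library was left out. The 71 at 6 h became 369 with DESeq2, 8 with only the groups compared, 46 with the replicate block, 130 with the block without CTL 6 h 4.24, 113 with a mean CPM of at least 1, and 14 to 214 when a library was left out. With a mean CPM of at least 1, which leaves fewer genes, activation called 4922 genes in CKO (10107 otherwise) and 7501 in CTL (17033 otherwise); without CKO 6 h 5.6 it called 6600 in CKO.

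The median share of counts in CKO at 6 h (6.72%) was 6.91% of protein-coding counts. The median core level (977 CPM per kb) was 442 with merged exons, which are longer. TOP-like starts (21) numbered 13 with at least 7 pyrimidines. The other 325 recomputed values stayed within 1.5 times for counts and within the spread between replicates for medians, shares and levels. For medians that spread was 0.22 on the log2 scale, wider than each main median is far from 0, so staying within it says little. For the CTL 6 h share it was 2.44 percentage points, with 4.24 included, so it says little there too. Medians near 0 did not keep their sign: when a library was left out, CKO over CTL ran from -0.07 to 0.10 at 0 h and from -0.16 to 0.00 at 6 h. CTL 6 h 4.24 was the shallowest library, and Rpl10l was too low to be tested.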

Other observations

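Rpl34-ps1, a processed pseudogene of Rpl34 (chr6:71124610-71124963, plus strand), measured 16.5 to 49.7 CPM in 11 libraries and 0.81 to 1.54 CPM in the other 9, and no library lay between. In CKO it measured 1.29, 20.2 and 26.6 CPM at 6 h and 0.81 to 35.1 CPM at 0 h. In CTL it measured 0.97 to 49.7 CPM at 6 h and 1.17 to 35.0 CPM at 0 h, so both levels occurred in each of the 4 groups. It was not called in CKO against CTL (log2 fold change 0.17 ± 1.38 at 6 h, edgeR adjusted p = 0.938; 0.51 ± 1.10 at 0 h, adjusted p = 0.921). It was chosen after its values were seen.

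Of 281 genes annotated as pseudogenes with Rpl or Rps symbols, 183 passed the filter. Their counts relative to those of the members were 0.284 to 0.350% in CKO and 0.522 to 1.23% in CTL at 6 h, and 0.279 to 0.459% in CKO and 0.430 to 0.751% in CTL at 0 h. Rps3a2 and Rps3a3 are among these genes. Rps3a3 alone measured 1.31 to 1.52 CPM in CKO and 98.9 to 353 CPM in CTL at 6 h. At 0 h it measured 1.57 to 80.0 CPM in CKO and 88.9 to 248 CPM in CTL. The share without Rps3a2 and Rps3a3 was not computed, so no difference of the other pseudogenes between genotypes is shown.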
